A study of Mus musculus with 12 samples.

Results

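The B220+ bone marrow cells of young precancerous Eµ-Myc mice were compared with those of wild type mice, gene by gene, to ask how a Myc transgene alters the B-lineage transcriptome before lymphoma. Of the 12 arrays of the series, 6 entered this comparison, 3 from Eµ-Myc mice (Myc 1 to 3) and 3 labelled wild type (wild type 1 to 3). Genes were chosen for testing by signal alone. Of 18194 genes with a probe set of their own, the 10287 that exceeded a log2 intensity of 4 on 3 or more of the 12 arrays were tested, each through its probe set with the highest mean, and 7907 were left out as too low.

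The Eµ-Myc mice carried Myc under Eµ, the intronic enhancer of the immunoglobulin heavy chain locus, which is active in B-lineage cells from their early stages on, and were sampled before overt tumours. The wild type mice carried no transgene. Both kinds were littermates aged 4 to 6 weeks, 94% C57BL/6 by descent, and the other 6 arrays came from littermates with an Eµ-TTP-1 transgene, alone or together with Eµ-Myc. Cells were taken from bone marrow with magnetic beads against CD45R (B220), so any cell that bears B220 or stays on the column contributes RNA. Total RNA was hybridised to 1 Affymetrix MOE430 2.0 array per sample, and per the labels the replicates of a group are biological. In such bulk RNA, fewer cells of a type and less RNA per cell cannot be told apart.

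MYC is a transcription factor that pairs with MAX and binds the E-box CACGTG and related sequences. It is known for raising genes of ribosome biogenesis, nucleotide synthesis and mitochondrial function, and the MXD proteins and MNT compete with it for MAX. In the B lineage Myc is normally high in dividing large pre-B cells and low in small resting pre-B cells, and in Eµ-Myc mice an excess of cycling pre-B cells is known to precede clonal lymphoma.

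The level of Myc was read first, as a check of the labels. Its intensity was 13361, 15451 and 8163 on Myc 1, 2 and 3, against 805 and 819 on wild type 1 and 2 and 6411 on the array labelled wild type 3. The array labelled wild type 3 thus lay far above the other wild type arrays and close to Myc 3, although the groups did not overlap. On the log2 scale Myc was higher by 2.88 ± 0.95 (SE, n = 3 each), with an adjusted p of 0.0615 in limma over all tested genes, which misses the threshold of 0.05. The array labelled TTP 3 went against its label in the same way, with 11360 against 1060 and 1343 on TTP 1 and 2. A second fit left out both of these arrays, those labelled wild type 3 and TTP 3, and used the other 10. In this reduced fit Myc differed by 3.87, with an adjusted p of 0.000827. Both arrays had been picked by their Myc level, so these values for Myc are a description and no independent test. Counts over gene lists are given from all 12 arrays and then from the reduced fit. Differences of single genes are from all 12 arrays unless the reduced fit is named. Of the 124 genes named with values from the fit besides Myc, the 88 called from all 12 arrays were also called in the reduced fit with the same sign, at 0.918 to 1.37 times the difference.

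The arrays labelled wild type 3 and Myc 3 also stood apart in the rest of the transcriptome. The first principal component of the 6 arrays held 84.0% of the variance, and its scores were 74.3, 63.5 and 0.62 on Myc 1, 2 and 3 and -57.4, -68.0 and -12.9 on wild type 1, 2 and 3. Myc 3 and the array labelled wild type 3 thus lay next to each other between the other 4. Sex-linked genes differed among the arrays as well. The Y-linked gene Kdm5d had log2 levels of 9.33, 2.55 and 2.69 on Myc 1, 2 and 3, against 2.56, 2.59 and 8.29 on wild type 1, 2 and 3, while Xist, the RNA of the inactive X chromosome, stood at 1.86, 13.55 and 13.68 in Myc marrow and 14.01, 13.85 and 8.14 in wild type marrow. The array labelled wild type 3 was the only 1 of these 6 with both genes above log2 8. Signals of B-lineage genes were present on every array. Cd79a, Cd79b and Ms4a1, which encode subunits of the B-cell receptor and CD20, lay between 12.92 and 15.30 on all 12, as did Ptprc, which encodes CD45. The B-lineage factors Pax5 and Ebf1 were lower. Pax5 had 8.01, 9.02 and 8.95 in Myc marrow, against 10.47, 10.11 and 9.33 in wild type marrow. Ebf1 had 11.71, 11.57 and 12.26 in Myc marrow, against 13.04, 12.84 and 12.18 in wild type marrow.

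**Figure D1:**
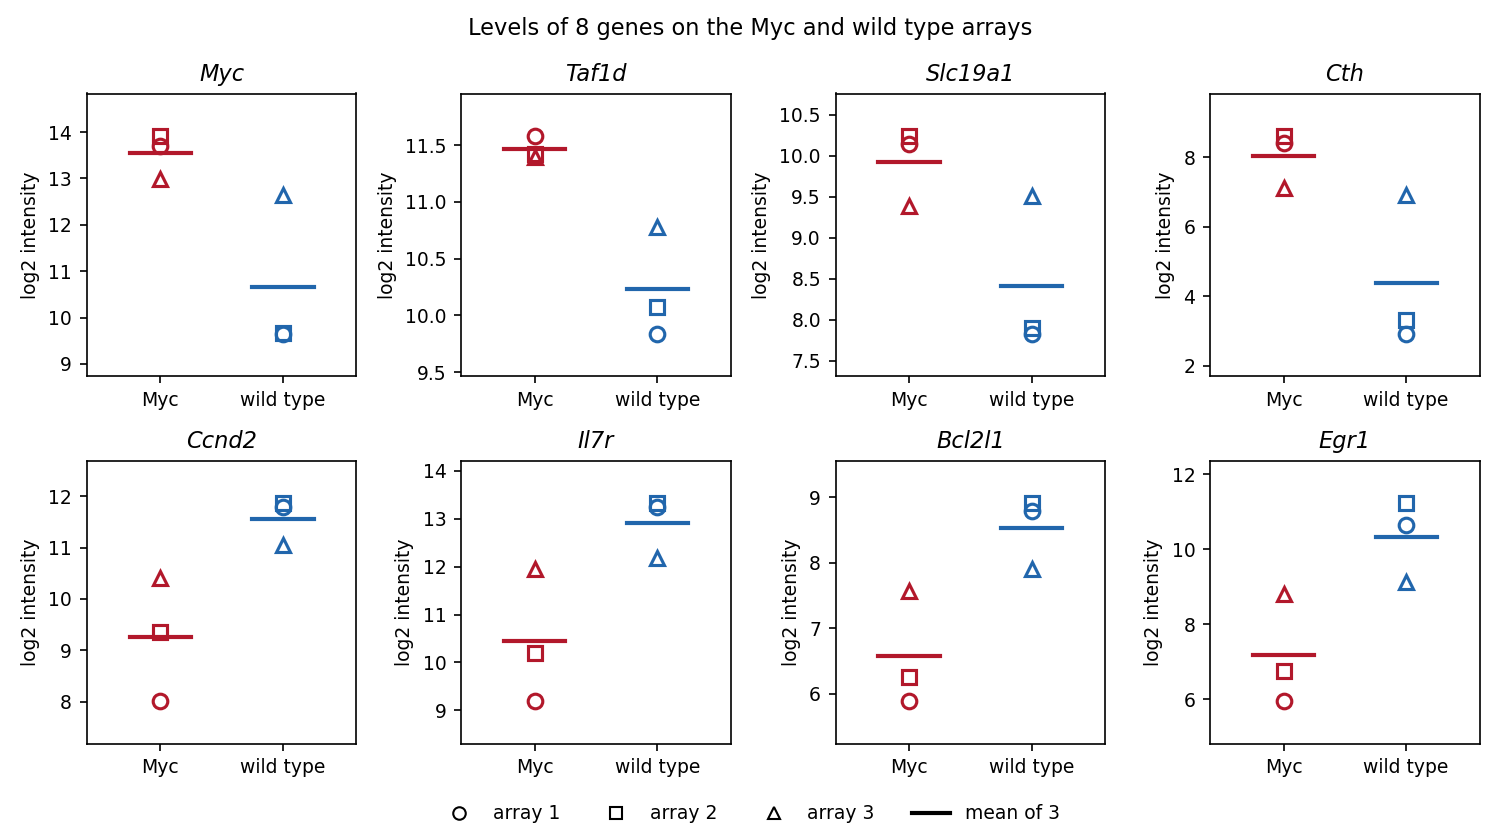
Log2 intensity of 8 genes on the 3 Myc and the 3 wild type arrays, with a symbol for each array number and a bar at the mean of 3. The triangles, Myc 3 and the array labelled wild type 3, lie nearer to each other than to the other arrays of their group for 7 of the genes, all but Taf1d.

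Of the 10287 genes, 48 were called higher in Myc (0.467%) and 1087 lower (10.6%), 11.0% in all, at an adjusted p under 0.05. All of them passed narrowly, with adjusted p-values between 0.0479 and the threshold, so these are not repeated below. No gene passed without the filter, with the most variable probe set, quantile normalization, a common median or a replicate block, or without trend or moderation in the fit (0 of either direction, with 3749 to 4477 at an unadjusted p under 0.05), or with wild type 1 or 2, Myc 1 or 2, TTP 1 or any Myc TTP array left out in turn (2338 to 4093 at an unadjusted p under 0.05). The verbs rose and fell are kept for the 1135 genes, and for the reduced fit where it is named. In the reduced fit the calls were 1439 higher (14.0%) and 3526 lower (34.3%), and all 1135 genes called from all arrays were among them. The median difference over all tested genes was -0.21 log2, and a common median for the arrays moved it to 0.05. In 3.49% of the genes the 3 Myc values all lay above the 3 wild type values, and in 41.3% all lay below. A lack of overlap with Myc below is thus common and does not by itself set a gene apart. With the arrays at a common median, all Myc values lay above in 2407 genes and below in 1834.

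**Figure D2:**
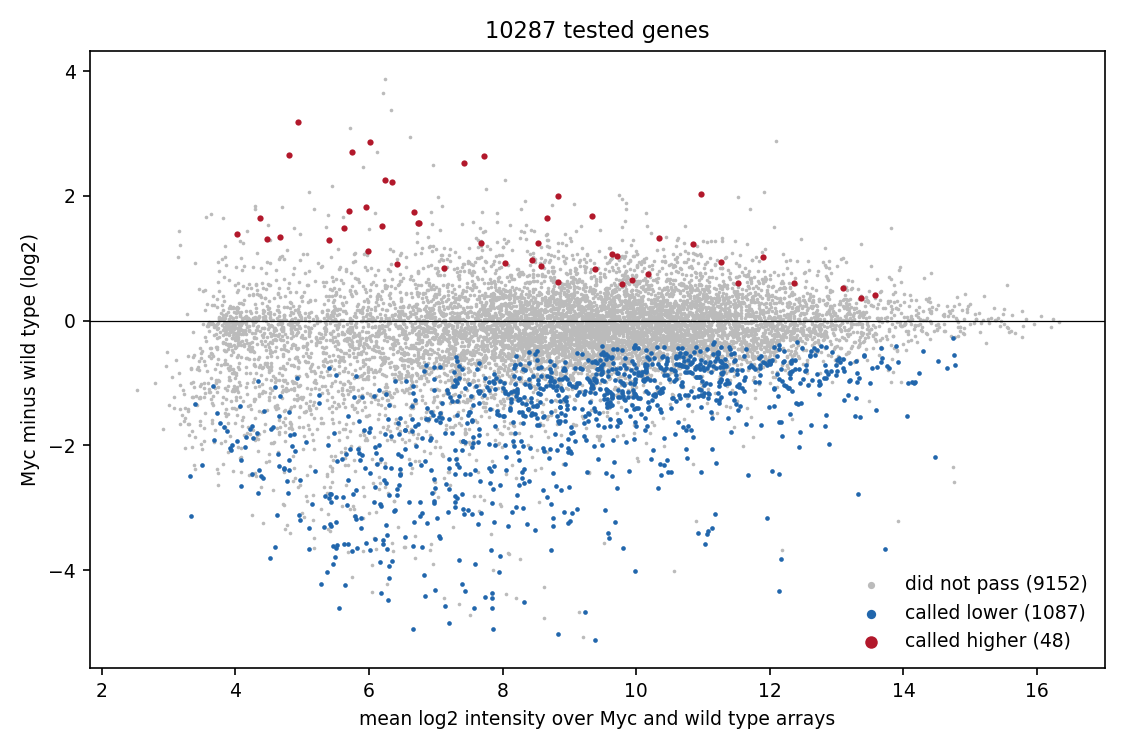
Difference between the Myc and wild type means (log2) against the mean log2 intensity, 1 point per tested gene. The 48 genes called higher and the 1087 called lower lie on either side of 9152 genes that did not pass, and the falls reach -5.12 where the called rises reach 3.19.

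Gene lists differed in direction. Over 15 lists of growth genes, which cover ribosome assembly, translation, splicing, mRNA decay, nuclear transport and the Myc network, 3 of 492 tested genes rose and 4 fell, with a median difference of 0.31 log2. In the reduced fit 274 of them were called higher and 30 lower. Over 6 lists of B-cell genes 1 of 128 rose and 58 fell, with a median of -0.95, against 2 higher and 93 lower in the reduced fit. Over 8 lists of signalling genes 1 of 151 rose and 61 fell, with a median of -0.97, against 5 and 112 in the reduced fit. Over 8 lists of markers of other marrow cells none of 122 rose and 37 fell, with a median of -2.23, and the reduced fit called 1 higher and 108 lower. Some lists had a share of falls near the 10.6% of all genes, and there the count does not set the list apart. These include the Myc network, the BCL2 family and the erythroid, stem cell, polyamine and amino acid transporter lists. Counts from the reduced fit are likewise to be read beside the 14.0% higher and 34.3% lower among all genes.

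The order of the arrays was alike in most lists. In the 114 genes of 5 nucleolar lists, Myc 1 and 2 both lay above wild type 1 and 2 for 111, whereas Myc 3 lay below the array labelled wild type 3 for 107. With all arrays brought to a common median, Myc 3 lay above the array labelled wild type 3 for 57 of the 114 genes and below it for the other 57. Among the 1087 genes that fell, Myc 3 was below the array labelled wild type 3 for 1077, and for 827 at a common median. The 48 genes that rose differ from the nucleolar genes in this, since at a common median all 48 lay higher on Myc 3 than on the array labelled wild type 3. The rule for a call used the same values, so this count is a description.

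**Figure D3:**
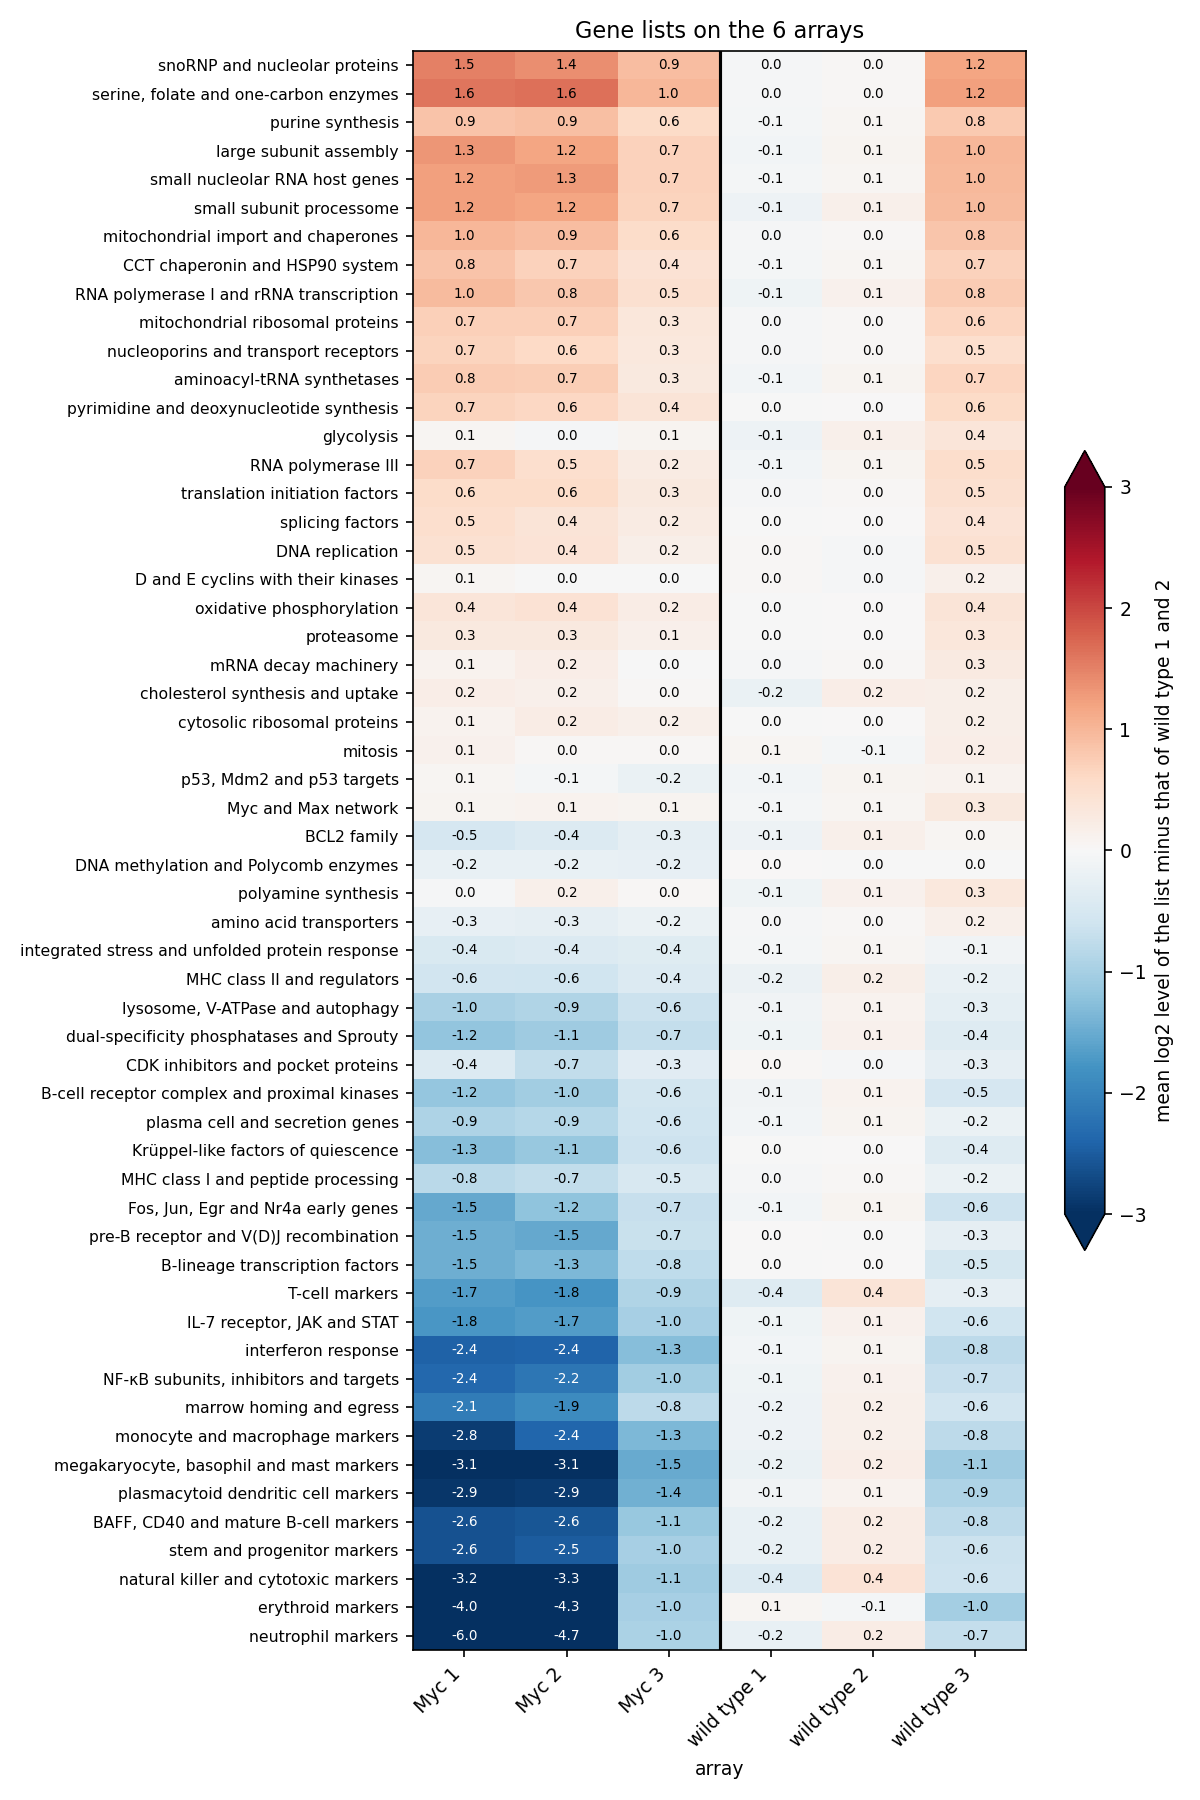
Mean log2 level of each of 56 gene lists on the 6 arrays, minus the mean of wild type 1 and 2. Nucleolar, purine and folate lists reach 0.80 to 1.64 on Myc 1 and 2, neutrophil markers reach -6.00 and -4.66, and for both kinds Myc 3 and the array labelled wild type 3 lie between the other arrays.

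**Figure D4:**
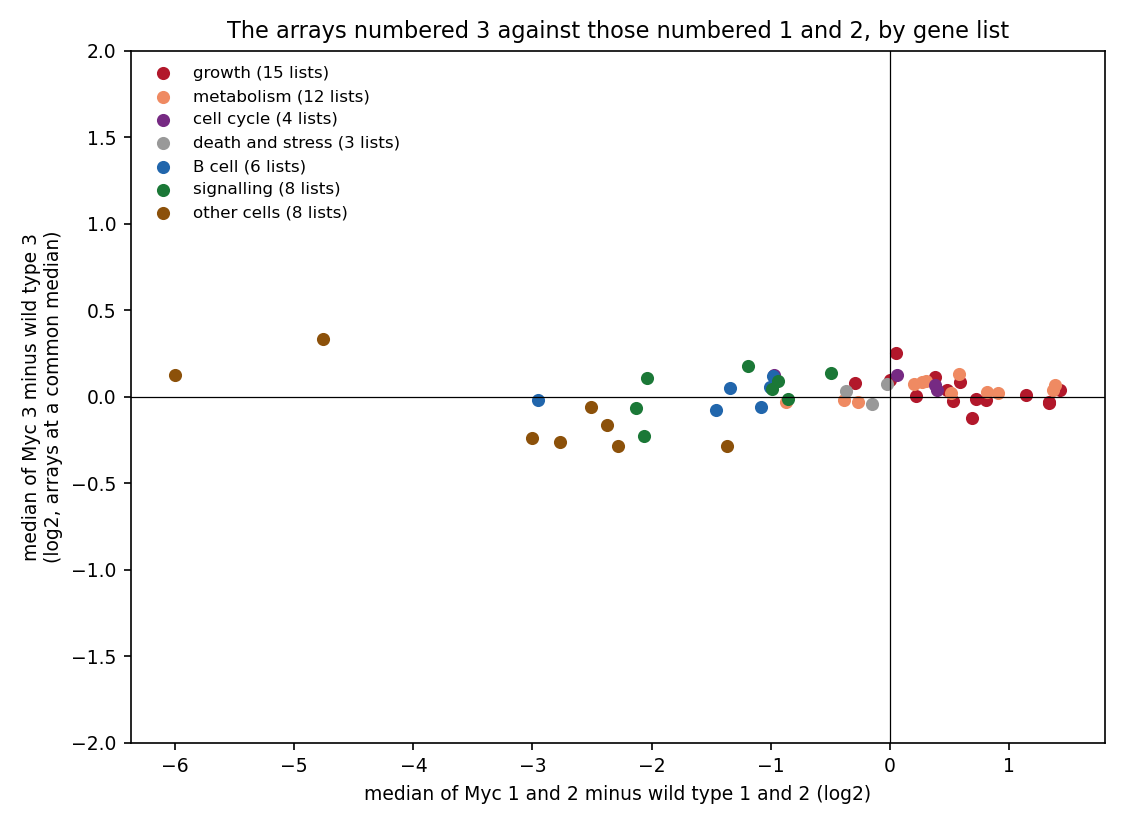
Each point is a gene list. The x axis is the median of the mean of Myc 1 and 2 minus the mean of wild type 1 and 2, and the y axis the median of Myc 3 minus the array labelled wild type 3 after all arrays were brought to a common median, both in log2. The lists span -6.00 to 1.43 on x, while on y they stay between -0.29 and 0.33.

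Within the Myc and Max network, 2 of 17 tested members fell, a share near the 10.6% of all genes, and none rose. Mxd4, a partner of MAX that represses Myc targets, had 9.23, 9.64 and 9.97 in Myc marrow, against 10.32, 10.29 and 10.32 in wild type marrow. It fell by 0.70 ± 0.19, with no overlap of the groups, as with Myc below in 41.3% of all tested genes. Mycl, a paralog of Myc, had 3.23, 3.19 and 3.71 in Myc marrow, against 4.59, 5.27 and 4.38 in wild type marrow. Because its Myc mean lay below the floor of log2 4, its fall is given as at least 1.68-fold. Mxd1, another MAX partner, was at 6.29, 6.44 and 8.19 in Myc marrow and 9.05, 9.52 and 8.22 in wild type marrow, a difference of -1.96 ± 0.63 that did not pass (adjusted p = 0.0578).

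Other members did not pass. Max differed by 0.08 ± 0.17, Mnt by -0.04 ± 0.12, Mxi1 by 0.02 ± 0.13 and Mxd3 by -0.09 ± 0.13. The MAX-like factor Mlx and its partner Mlxip, which act in glucose sensing, differed by -0.65 ± 0.20 and -0.60 ± 0.19 and did not pass either. Ruvbl1 and Ruvbl2, ATPases that act as Myc cofactors, differed by 0.70 ± 0.31 and 0.85 ± 0.37 without passing. They were called in the reduced fit, at 1.09 and 1.25. Mycn was left out as too low, with 3.59, 3.28 and 3.57 in Myc marrow and 3.42, 3.66 and 3.41 in wild type marrow.

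Of the 114 genes of the 5 nucleolar lists 2 passed with all arrays. Myc 1 and 2 both lay above wild type 1 and 2 for 13 of 19 RNA polymerase III genes and below them for 3, and none of the 19 passed, against 8 higher and 2 lower in the reduced fit. Among RNA polymerase I genes Taf1d, a subunit of the SL1 factor that directs polymerase I to ribosomal DNA, rose. It had 11.58, 11.42 and 11.39 in Myc marrow, against 9.84, 10.08 and 10.78 in wild type marrow. The difference was 1.23 ± 0.35, and each Myc array lay above each wild type array. The catalytic subunits Polr1a and Polr1b differed by 1.05 ± 0.37 and 1.72 ± 0.63 and did not pass. Myc 3, with 8.67 and 8.19, lay below the array labelled wild type 3, with 8.96 and 8.65. In all, 1 of 12 tested polymerase I genes rose, and 7 were called higher in the reduced fit.

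Of 37 genes of the small subunit processome, the particle that folds and cuts the precursor of 18S ribosomal RNA, none passed with all arrays, with a median difference of 0.66. In the reduced fit 34 were called higher and none lower. Rrp12, an export and processing factor, had 9.60, 9.47 and 8.73 in Myc marrow, against 7.42, 7.80 and 8.97 in wild type marrow. Myc 3 thus lay below the array labelled wild type 3, and the difference of 1.20 ± 0.40 did not pass. Utp11 differed by 0.52 ± 0.16 with no overlap and an adjusted p of 0.0556.

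The 41 genes of large subunit assembly had a median of 0.73, none passed with all arrays, and 36 were called higher and 1 lower in the reduced fit. Rrs1, which helps load the 5S particle onto the large subunit, differed by 0.95 ± 0.30 without passing. The exception was Ddx54, a helicase, with a difference of -0.35 ± 0.10 and an adjusted p of 0.0513. All 14 genes of box C/D and H/ACA particles and other nucleolar proteins, and all 10 small nucleolar RNA host genes, were called higher in the reduced fit, where 14.0% of all genes were. With all arrays only the host gene Snhg6 rose among them, by 0.94 ± 0.25, with 11.82, 12.04 and 11.37 in Myc marrow and 10.48, 10.67 and 11.26 in wild type marrow.

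Heatr3, which is needed to bring the ribosomal protein uL18 to the nucleus, rose by 1.75 ± 0.46 and is in none of these lists. Tma16, which binds pre-60S particles, rose by 1.65 ± 0.46, with 9.76, 9.84 and 8.86 in Myc marrow and 7.39, 7.45 and 8.66 in wild type marrow. Of the 3 probe sets of Tma16 above the floor, 1 differed by -0.18.

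The E-box that MYC and MAX bind was looked for in windows that reach from 250 bases before to 50 bases past each gene's start (RefSeq, GRCm38.p6), and 5 of them are shown because their genes had the smallest p among the growth and metabolism genes that were higher in Myc and hold the hexamer. The genes are Wdr77, a partner of the PRMT5 methyltransferase; Atic, which carries out the last steps of purine ring synthesis; Timm8a1, a chaperone of mitochondrial import; Atp5g3, a subunit of ATP synthase; and Psme3, a proteasome activator. Each sequence is written 5′ to 3′ on the strand of its gene, and capitals mark CACGTG, which reads the same on both strands.
Wdr77: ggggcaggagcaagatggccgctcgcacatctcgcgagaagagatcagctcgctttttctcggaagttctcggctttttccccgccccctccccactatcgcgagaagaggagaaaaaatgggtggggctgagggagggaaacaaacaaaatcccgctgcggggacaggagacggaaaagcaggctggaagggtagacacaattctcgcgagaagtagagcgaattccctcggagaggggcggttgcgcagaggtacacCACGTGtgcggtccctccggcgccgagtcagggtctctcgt
Atic: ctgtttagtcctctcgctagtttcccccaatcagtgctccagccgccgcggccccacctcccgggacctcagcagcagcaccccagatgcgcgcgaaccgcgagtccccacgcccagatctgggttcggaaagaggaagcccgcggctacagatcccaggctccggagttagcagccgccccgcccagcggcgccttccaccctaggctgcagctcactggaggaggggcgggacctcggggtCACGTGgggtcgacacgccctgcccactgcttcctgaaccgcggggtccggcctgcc
Timm8a1: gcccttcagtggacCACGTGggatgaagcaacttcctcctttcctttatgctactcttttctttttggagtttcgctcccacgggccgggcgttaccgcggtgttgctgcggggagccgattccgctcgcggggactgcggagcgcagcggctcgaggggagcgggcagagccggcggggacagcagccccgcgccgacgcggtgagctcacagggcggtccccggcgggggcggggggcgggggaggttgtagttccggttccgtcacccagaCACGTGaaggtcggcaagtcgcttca
Atp5g3: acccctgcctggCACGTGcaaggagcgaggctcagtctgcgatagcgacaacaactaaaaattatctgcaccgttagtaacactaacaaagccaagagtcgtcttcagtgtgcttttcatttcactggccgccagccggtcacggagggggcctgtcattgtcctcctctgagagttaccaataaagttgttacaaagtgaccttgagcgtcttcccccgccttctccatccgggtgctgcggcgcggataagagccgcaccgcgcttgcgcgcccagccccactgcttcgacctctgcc
Psme3: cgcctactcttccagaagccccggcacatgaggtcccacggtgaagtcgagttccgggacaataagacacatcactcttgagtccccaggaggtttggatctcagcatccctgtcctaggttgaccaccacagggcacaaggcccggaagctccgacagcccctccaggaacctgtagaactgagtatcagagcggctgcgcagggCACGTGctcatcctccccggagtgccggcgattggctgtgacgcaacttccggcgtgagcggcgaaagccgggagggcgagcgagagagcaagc
The windows lie at chr3:105959248-105959547 on the plus strand, chr1:71556906-71557205 on the plus strand, chrX:134541621-134541920 on the minus strand, chr2:73911277-73911576 on the minus strand and chr11:101315963-101316262 on the plus strand. Counted from 1 at the 5′ end, the hexamer begins at base 260 in Wdr77, 244 in Atic, 15 and 275 in Timm8a1, 13 in Atp5g3 and 207 in Psme3.

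None of these 5 genes passed with all arrays. Atic had 12.48, 12.47 and 11.88 in Myc marrow, against 10.35, 10.75 and 12.05 in wild type marrow, a difference of 1.23 ± 0.42. Timm8a1 had 11.84, 11.85 and 11.20 in Myc marrow, against 9.83, 9.89 and 11.34 in wild type marrow, a difference of 1.28 ± 0.42. In both, the array labelled wild type 3 lay above Myc 3. Atp5g3 differed by 1.48 ± 0.48 with no overlap, Wdr77 by 0.75 ± 0.25 and Psme3 by 0.69 ± 0.23, and all 5 were called higher in the reduced fit.

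The hexamer was found in 7.15% of 32851 promoter windows. Counted by gene, with a match in any window of the gene, it was in 8.09% of 27025 genes and 12.3% of 8440 tested genes. The shares below are counted by gene. It was in 9 of 29 small subunit processome genes (31.0%), 7 of 35 large subunit assembly genes (20%) and 6 of 24 mitochondrial import genes (25%). The highest share among the lists searched was that of lysosomal genes, with 16 of 40 (40%). Of the genes that rose 5 of 40 held it (12.5%), and of those that fell 111 of 872 (12.7%), both near the share of all tested genes. None of 26 interferon response genes, 10 nucleolar particle genes or 13 folate and serine genes held it. A match says only that the letters are present.

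Cytosolic ribosomal proteins were high on every array, with mean levels of 14.25, 14.35 and 14.29 in Myc marrow and 14.13, 14.14 and 14.31 in wild type marrow. Of 44 tested genes 1 rose, Rps6, a small subunit protein and a target of S6 kinase, by 0.61 ± 0.17. It had 11.87, 11.93 and 11.70 in Myc marrow and 11.04, 11.09 and 11.54 in wild type marrow, with no overlap. Myc 1 and 2 both lay above wild type 1 and 2 for 20 of the 44 and below them for 7, and 7 were called higher in the reduced fit. The median of this list was 0.03, and 35 further members were not analysed here.

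Other parts of the translation machinery differed more. Of 76 mitochondrial ribosomal proteins none passed with all arrays, and 54 were called higher and none lower in the reduced fit. Mrpl12, a large subunit protein of the mitochondrial ribosome, stood at 13.10, 13.03 and 12.55 in Myc marrow and 11.51, 11.55 and 12.74 in wild type marrow. Of 32 initiation factors and regulators 20 were called higher in the reduced fit, and of 37 aminoacyl-tRNA synthetases and their scaffold proteins also 20. Eif4ebp1, which restrains cap-dependent translation, differed by 0.65 ± 0.21 with no overlap but did not pass, and 1 of its 3 probe sets above the floor differed by -0.19. Aimp2, a scaffold of the synthetase complex, differed by 1.09 ± 0.40 without passing.

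Of 14 genes of the serine, folate and one-carbon list, none passed with all arrays and 13 were called higher in the reduced fit, with medians of 0.86 and 1.24. Cth, the enzyme that makes cysteine from cystathionine, had 8.40, 8.60 and 7.10 in Myc marrow, against 2.93, 3.31 and 6.92 in wild type marrow. Wild type 1 and 2 lay below the floor, while the array labelled wild type 3 lay just under Myc 3, and the difference of 3.65 ± 1.20 did not pass (adjusted p = 0.0609). Mthfd1, which interconverts forms of folate, differed by 1.07 ± 0.36 without passing. The folate carrier Slc19a1 had 10.15, 10.24 and 9.38 in Myc marrow and 7.83, 7.89 and 9.51 in wild type marrow, so that the array labelled wild type 3 exceeded Myc 3.

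Of 17 purine genes 13 were called higher and 2 lower in the reduced fit, and none passed with all. Aprt, which salvages adenine, differed by 0.94 ± 0.29 (adjusted p = 0.0548), and Nme2, a nucleoside diphosphate kinase, by 0.96 ± 0.30 with no overlap (adjusted p = 0.0561). The muscle-type adenylosuccinate synthase gene Adssl1 did not pass either and was on the other side, at 7.58, 7.98 and 9.20 in Myc marrow and 10.08, 9.97 and 8.96 in wild type marrow. Of 16 genes of pyrimidine and deoxynucleotide synthesis none passed with all arrays, and 9 were called higher and 3 lower in the reduced fit. There Myc 1 and 2 both lay above wild type 1 and 2 for 9 and below them for 5.

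Among the 8 tested polyamine genes 1 fell and none rose, against 4 lower and 3 higher in the reduced fit. Sat1, which acetylates spermidine and spermine for export and breakdown, fell by 1.33 ± 0.37, with 11.37, 11.76 and 12.14 in Myc marrow and 13.21, 13.44 and 12.62 in wild type marrow. Odc1, the first enzyme of polyamine synthesis, had 12.72, 12.84 and 12.60 in Myc marrow, against 11.77, 11.72 and 12.64 in wild type marrow, a difference of 0.68 ± 0.22 that did not pass.

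Energy and lipid genes gave single calls. Pdk1, a kinase that keeps pyruvate from oxidation in mitochondria, rose by 1.07 ± 0.31, although Myc 3 (9.75) lay below the array labelled wild type 3 (9.90). Hk3, a hexokinase of myeloid cells, fell by 3.45 ± 0.84, with 4.67, 4.08 and 7.21 in Myc marrow and 8.88, 9.41 and 8.01 in wild type marrow, lowest on Myc 1 and 2 like the neutrophil markers described below. The remaining 16 of 18 tested glycolysis genes did not pass, and the reduced fit called 9 of the 18 higher and 4 lower. Of 22 cholesterol genes only Idi1 rose, the isomerase that makes dimethylallyl diphosphate, with 10.34, 10.36 and 9.83 in Myc marrow and 8.24, 8.37 and 8.90 in wild type marrow. Its difference was 1.67 ± 0.48, while Hmgcs1, an earlier enzyme of the pathway, differed by 0.43 ± 0.13 with no overlap and did not pass. The reduced fit called 4 cholesterol genes higher and 2 lower.

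Of 58 oxidative phosphorylation genes and 26 genes of mitochondrial import none passed with all arrays, and 29 and 20 of them were called higher in the reduced fit.

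Of 14 amino acid transporters 1 fell and none rose, against 6 lower and 3 higher in the reduced fit. Slc36a4, a lysosomal and plasma membrane carrier, fell by 0.78 ± 0.22. Slc43a2, a carrier of large neutral amino acids, differed by -1.07 ± 0.33 and did not pass. Its groups did not overlap, as with Myc below in 41.3% of all tested genes.

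The cell cycle lists held few calls. Among D and E cyclins and their kinases 1 rose and 2 fell of 13 tested. The reduced fit called 3 higher and 4 lower, not far from the 14.0% and 34.3% of all genes. Ccne1, cyclin E1, which drives entry into S phase, had 10.55, 10.30 and 9.98 in Myc marrow and 9.60, 9.45 and 9.79 in wild type marrow, and rose by 0.66 ± 0.16. Ccnd2, a D cyclin that depends on growth factors, had 8.01, 9.36 and 10.41 in Myc marrow and 11.79, 11.86 and 11.04 in wild type marrow, and fell by 2.31 ± 0.65. Ccnd3, the D cyclin of pre-B cells, fell by 1.03 ± 0.28. All 3 showed no overlap between groups, which held for 3.49% of all tested genes with Myc above and 41.3% with Myc below.

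Chek1, the checkpoint kinase of replication stress, was among the 48 genes that rose, by 0.59 ± 0.14, with 10.20, 10.14 and 9.93 in Myc marrow and 9.43, 9.42 and 9.65 in wild type marrow. The inhibitor Cdkn1c (p57) rose at least 2.52-fold above a wild type mean that lay just below the floor, with 6.23, 5.20 and 4.57 in Myc marrow and 3.98, 3.73 and 4.26 in wild type marrow. Cdkn1b (p27) and Rbl2, a pocket protein of resting cells, differed by -0.81 ± 0.25 and -0.93 ± 0.29 and did not pass. Their groups did not overlap, which held with Myc below for 41.3% of all tested genes. Of the 8 CDK inhibitors and pocket proteins the reduced fit called 6 lower and 1 higher. None of 44 replication genes and none of 34 mitosis genes passed, with medians of 0.17 and -0.02, the second of which was 0.16 with quantile normalization. In the reduced fit 18 replication genes were called higher and none lower, against 2 higher and 1 lower of the mitosis genes.

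Cdkn2a, which encodes p16 and p19ARF, the link from Myc to p53, was left out by the filter on low values and was looked up for this role. It had 5.87, 5.85 and 3.35 in Myc marrow, against 1.66, 1.86 and 2.59 in wild type marrow. Only Myc 1 and 2 lay above the floor of log2 4, and with no filter its adjusted p was 0.0846.

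Of 22 tested genes of p53, its regulators and targets 4 fell and none rose, with a median of -0.04 (0.31 with quantile normalization) against -0.21 for all genes, and the reduced fit called 7 lower and 5 higher, where 34.3% and 14.0% of all genes were. The share of lower calls there was near that of all genes. Those that fell include Ccng2, a cyclin of arrested cells, by 0.79 ± 0.21, Rrm2b, the ribonucleotide reductase subunit used for DNA repair, by 0.65 ± 0.18, and Trp53inp1, which promotes autophagy and apoptosis, by 0.68 ± 0.19. The other of the 4 was Mdm2, whose fall was the largest among them. Trp53 itself was not analysed here. In the BCL2 family 1 of 13 fell, against 4 lower and 3 higher in the reduced fit. Bcl2l1, which encodes the survival protein BCL-XL, had 5.89, 6.26 and 7.58 in Myc marrow and 8.79, 8.90 and 7.90 in wild type marrow. It fell by 1.96 ± 0.43 with no overlap, as with Myc below in 41.3% of all tested genes. The survival genes Bcl2l2 and Mcl1 differed by -1.10 ± 0.32 and -0.84 ± 0.26 and did not pass, with adjusted p-values of 0.0502 and 0.0543.

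In the list of the integrated stress and unfolded protein response 6 of 25 fell and none rose. The reduced fit called 11 lower and 5 higher, not far from the 34.3% and 14.0% of all genes. Edem1, which sends misfolded proteins out of the endoplasmic reticulum, fell by 1.19 ± 0.28, and Herpud1, which acts in the same disposal, by 1.05 ± 0.25. Eif2ak3, the kinase PERK, fell by 1.04 ± 0.27. Xbp1, a transcription factor of the unfolded protein response, had 10.48, 10.61 and 11.61 in Myc marrow and 12.10, 12.33 and 11.73 in wild type marrow, and fell by 1.16 ± 0.31.

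Genes of the B lineage were lower on the Myc arrays, and none of the lists in this group except that of secretion genes held a rise. Of 19 genes of the pre-B receptor and V(D)J recombination 12 fell, with a median of -0.80, and the reduced fit called 14 lower and 1 higher. Vpreb1, part of the surrogate light chain, had 8.37, 8.30 and 11.73 in Myc marrow and 13.23, 13.06 and 12.07 in wild type marrow, and fell by 3.32 ± 0.83. Dntt, the terminal transferase of pro-B cells, had 7.24, 6.30 and 10.01 in Myc marrow and 11.64, 11.43 and 10.97 in wild type marrow, and fell by 3.49 ± 0.84. Arpp21 fell by 1.99 ± 0.44. For all 3 genes Myc 3 lay nearer to the wild type arrays than to Myc 1 and 2.

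Of 29 B-lineage transcription factors 14 fell, with a median of -0.99, and 24 in the reduced fit. Irf8 and Irf4, which act together in pre-B cells to end proliferation and open the light chain loci, fell by 1.31 ± 0.29 and 1.04 ± 0.24. Irf4 had 11.48, 11.41 and 12.19 in Myc marrow, against 12.80, 12.97 and 12.42 in wild type marrow. Of 28 genes of the B-cell receptor and its proximal kinases 10 fell, and 21 in the reduced fit. Pik3ap1 (BCAP), an adaptor that brings PI3 kinase to the receptor, fell by 1.61 ± 0.30, Cd72, an inhibitory coreceptor, by 1.19 ± 0.25, and Cd79a, a signalling chain of the receptor, by 0.64 ± 0.16.

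Of 16 genes of BAFF and CD40 signalling and mature B cells 8 fell, or 12 in the reduced fit, and the median of -2.01 was the lowest among the B-cell lists. Cd1d1, which presents lipids, fell by 1.10 ± 0.25 and Tnfrsf13b (TACI), a receptor for BAFF, by 0.76 ± 0.19. Of 24 genes of the interleukin-7 receptor and JAK-STAT signalling 10 fell, and 17 in the reduced fit. Il7r, the receptor chain that pro-B cells depend on, had 9.19, 10.19 and 11.94 in Myc marrow and 13.25, 13.32 and 12.17 in wild type marrow, a fall of 2.47 ± 0.60. Ifnar1, a chain of the type I interferon receptor, fell by 1.41 ± 0.32, and Stat2, which acts below it, by 1.56 ± 0.37. Socs1, an inhibitor of JAK kinases, fell at least 3.26-fold, since its Myc mean lay below the floor.

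Among 14 plasma cell and secretion genes 6 fell and 1 rose, against 7 and 1 in the reduced fit. Jchain, which joins secreted antibodies, had 5.53, 6.85 and 8.28 in Myc marrow and 11.23, 10.50 and 9.95 in wild type marrow, and fell by 3.67 ± 0.63. Here Myc 3 stayed well below each wild type array.

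The interferon response list had 24 of 35 tested genes called lower, against 10.6% of all genes, and none higher. Its median was -1.51. Rtp4, an interferon-induced chaperone of receptors, had 6.16, 6.34 and 8.06 in Myc marrow and 9.42, 9.72 and 8.62 in wild type marrow, and fell by 2.40 ± 0.50. Oasl1, an antiviral protein of the oligoadenylate synthetase family, fell by 2.77 ± 0.58. In the reduced fit 32 of the 35 were called lower, against 34.3% of all genes.

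Of 18 genes of NF-κB, its inhibitors and targets 8 fell, with a median of -1.55, and 16 in the reduced fit. Nfkbie, which encodes the inhibitor IκBε, had 8.81, 8.53 and 10.27 in Myc marrow and 11.91, 11.78 and 10.84 in wild type marrow, and fell by 2.31 ± 0.54. Bcl3, an IκB-like coactivator, fell at least 10.6-fold, with 2.50, 2.86 and 6.12 in Myc marrow and 7.48, 7.93 and 6.82 in wild type marrow. For both, Myc 3 lay below the array labelled wild type 3.

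Antigen presentation genes were in part lower. The reduced fit called 12 of 16 class I genes lower and 2 higher, and 7 of 16 class II genes lower. Of all tested genes it called 34.3% lower and 14.0% higher, so the class II share was not far from that of all genes. Of 16 genes of MHC class I and peptide processing 6 fell, among them Tap1, the peptide transporter, by 1.43 ± 0.34, and H2-D1, a class I heavy chain, by 0.98 ± 0.22. Of the 5 probe sets of H2-D1 above the floor, 1 differed by 0.59, so this gene is uncertain. Of 16 class II genes and regulators 4 fell, among them H2-Ob, a chain of the modulator H2-O, by 1.21 ± 0.33, and Ctss, the protease that trims the invariant chain, by 0.65 ± 0.18.

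Early response and quiescence genes were lower as well. Of 17 genes of the Fos, Jun, Egr and Nr4a families and their kin 4 fell and 1 rose, against 10 and 1 in the reduced fit. Egr1, an early gene of growth factor and antigen receptor signals, had 5.95, 6.75 and 8.81 in Myc marrow and 10.66, 11.22 and 9.13 in wild type marrow, and fell by 3.17 ± 0.81. Jun fell by 2.70 ± 0.68 and the antiproliferative gene Btg2 by 1.08 ± 0.21. Of 14 Krüppel-like and other quiescence factors 5 fell, against 11 lower and 1 higher in the reduced fit, among them Btg1 by 1.54 ± 0.36 and Klf2, a keeper of lymphocyte quiescence, by 0.78 ± 0.22. Of 16 dual-specificity phosphatases and Sprouty genes 4 fell, against 10 lower and 1 higher in the reduced fit. Dusp6, which switches off ERK, fell by 2.44 ± 0.65, Dusp10 by 2.33 ± 0.55 and Dusp2 by 1.47 ± 0.30.

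Of 21 genes of marrow homing and egress 7 fell, with a median of -1.54, and 16 in the reduced fit. Ccr9, a chemokine receptor, had 7.75, 8.16 and 9.57 in Myc marrow and 10.83, 10.62 and 10.04 in wild type marrow, and fell by 2.00 ± 0.43. Rgs2, a brake on G protein signals, fell by 1.79 ± 0.45, Itgb2, the common chain of the β2 integrins, by 1.86 ± 0.51, and Selplg, the ligand of P-selectin, by 0.85 ± 0.22.

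Lysosomal genes were in part lower. Of 50 genes of the lysosome, the proton pump and autophagy 20 fell and none rose, with a median of -0.68. Ctsl, the protease cathepsin L, had 8.17, 8.21 and 9.21 in Myc marrow and 11.05, 11.35 and 9.98 in wild type marrow, and fell by 2.26 ± 0.47. Psap, the precursor of the saposins, fell by 0.98 ± 0.20, Laptm5, a lysosomal membrane protein of blood cells, by 1.98 ± 0.44, and Sqstm1, the autophagy receptor p62, by 0.96 ± 0.22. In the reduced fit 34 were called lower and 1 higher.

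Markers of other marrow cells had the lowest median of the 7 groups of lists. The 22 tested neutrophil markers averaged 5.95, 7.28 and 10.99 in Myc marrow, against 11.72, 12.18 and 11.24 in wild type marrow, and 10 of them fell, or 20 in the reduced fit. Elane, neutrophil elastase, had 3.56, 5.02 and 9.59 in Myc marrow and 10.88, 11.19 and 9.63 in wild type marrow. It fell by 4.51 ± 1.30, with Myc 3 at almost the level of the array labelled wild type 3. Fcnb, a ficolin of neutrophil precursors, fell by 4.44 ± 1.22, and Csf3r, the receptor of the growth factor G-CSF, by 1.93 ± 0.48.

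The 18 tested erythroid markers averaged 5.64, 5.36 and 8.63 in Myc marrow, against 9.69, 9.56 and 8.60 in wild type marrow, and 2 of them fell, a share near the 10.6% of all genes, or 17 in the reduced fit. The 23 monocyte and macrophage markers averaged 7.41, 7.89 and 8.92 in Myc marrow, against 10.10, 10.42 and 9.48 in wild type marrow, and 7 fell, or 22 in the reduced fit, among them Mpeg1, a perforin of phagocytes, by 2.46 ± 0.55 and Cybb, the NADPH oxidase subunit gp91phox, by 3.38 ± 0.89. On no array were the means of these 3 lists below the floor of log2 4. Their part in the falls of the interferon, NF-κB, class II, lysosomal and early response genes, many of which such cells express too, was not tested.

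Plasmacytoid dendritic cells bear B220 themselves, and 10 of their 13 tested markers fell, or all 13 in the reduced fit. Siglech, a surface lectin of these cells, had 6.40, 6.47 and 8.44 in Myc marrow and 10.74, 11.00 and 9.45 in wild type marrow, and fell by 3.29 ± 0.69. Pacsin1, a membrane-bending protein, fell by 2.92 ± 0.61. Of 17 natural killer and cytotoxic markers 3 fell, or 14 in the reduced fit, with mean levels of 3.29, 3.21 and 5.44 in Myc marrow against 6.08, 6.91 and 5.86 in wild type marrow. Klrd1, the receptor chain CD94, fell by 3.68 ± 0.96, and Gzmb, granzyme B, at least 3.52-fold. Of 12 megakaryocyte, basophil and mast cell markers 3 fell, or 9 in the reduced fit, among them Mcpt8, a protease of basophils, by 4.42 ± 1.03, and Cpa3, a mast cell protease, at least 9.61-fold. Of 10 T-cell markers 2 fell, against 7 lower and 1 higher in the reduced fit, among them Lat, an adaptor of the T-cell receptor, by 1.82 ± 0.43. Of 9 stem and progenitor markers 1 fell, or 8 in the reduced fit. Erg, a transcription factor of stem cells, fell by 3.16 ± 0.85.

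The largest rises that passed were of genes at low or middle levels, outside the growth lists. Chst7, a sulfotransferase of proteoglycans, had 7.25, 7.19 and 5.15 in Myc marrow and 2.50, 2.75 and 4.79 in wild type marrow, and rose at least 5.78-fold. Stac2, an adaptor of calcium channels in muscle and neurons, had 6.89, 6.53 and 4.98 in Myc marrow and 2.76, 2.91 and 4.78 in wild type marrow, and rose at least 4.39-fold. For both genes Myc 3 lay only slightly above the array labelled wild type 3. Tmem255a, a membrane protein, rose by 2.86 ± 0.77.

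Zcchc10, a zinc finger protein, and the noncoding RNA Airn, known for imprinting at Igf2r, showed another order. Zcchc10 had 9.51, 8.11 and 8.46 in Myc marrow, against 6.20, 5.97 and 6.32 in wild type marrow, and rose by 2.53 ± 0.72. Airn had 7.02, 7.57 and 6.28 in Myc marrow, against 5.68, 5.45 and 5.20 in wild type marrow, and rose by 1.51 ± 0.36. For these genes the array labelled wild type 3 stayed with the other wild type arrays. Between the Eµ-TTP-1 arrays with and without Eµ-Myc, Zcchc10 differed by -0.52 and Airn by 0.93, and neither passed. Hspa12a rose at least 2.28-fold, with 5.25, 6.01 and 4.30 in Myc marrow and 3.51, 3.57 and 3.53 in wild type marrow. Its Myc values alone met the filter on low values. All its wild type values lay below the floor of log2 4, so their order cannot be read. Between the Eµ-TTP-1 arrays with and without Eµ-Myc it differed by -0.08.

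The transcript 1700097N02Rik had 12.39, 12.11 and 11.47 in Myc marrow, against 9.80, 9.59 and 10.48 in wild type marrow, and rose by 2.04 ± 0.40. Eid2, an inhibitor of histone acetylation, rose by 1.57 ± 0.31 and Armc6 by 1.74 ± 0.50. Bambi, a decoy receptor of TGF-β signals, and Prkar2a, a regulatory subunit of protein kinase A, rose by 2.23 ± 0.60 and 1.99 ± 0.54 although the array labelled wild type 3 lay above Myc 3 in both. These 2 were named after their values were seen.

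The same transgene could be compared in the presence of Eµ-TTP-1, with Myc TTP arrays against TTP arrays, which share no array with the comparison above but share the estimate of the spread. No gene passed there (0.0%). Of the 48 genes that rose in Myc, 43 had a positive difference in Myc TTP over TTP, with a median of 0.69 against 1.30 in Myc over wild type. Of the 1087 that fell, 998 had a negative one, with a median of -0.56 against -1.23. Among all tested genes, 92.3% of those with a positive Myc difference and 61.7% of those with a negative one kept their sign. The TTP group includes the array labelled TTP 3. The sign was shared by 1041 of the 1135 genes with that array and by 1082 without it. A test of the difference between both comparisons called 0 genes in limma, with 1351 at an unadjusted p under 0.05, and also 0 in an unmoderated linear model (1541) and in the reduced fit (1088). Without the 4 arrays numbered 3 it called 235, with 2112 at an unadjusted p under 0.05.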

How the data were processed

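Affymetrix MOE430 2.0 arrays were read from 12 samples of B220+ bone marrow, 3 in each of 4 groups assigned by their titles. The authors deposited GCRMA values, as the submitters' processing notes name them without a version. The deposited values are intensity on a linear scale, from 1.73 to 120125. GCRMA corrects background, normalizes between arrays and summarises probes, so a change in total RNA per cell is not seen and absent genes pile up at a low value. No further step of the authors is given in the labels.

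No pseudocount was added to the deposited intensity before log2. The platform annotation holds 45101 probe sets, of which 34958 had 1 gene symbol, 932 several and 9211 none, and 34754 of the first were matched in RefSeq (GRCm38.p6). A gene stood for its brightest probe set by the mean over all arrays, and was tested above log2 4 on at least 3 arrays. Differences were tested two-sided with limma 3.58.1 in R 4.3.3 (lmFit, trended eBayes) over the 12 arrays together, as 4 groups with 8 residual degrees of freedom and Benjamini-Hochberg adjustment over 10287 genes. Adjusted p-values in the text are from this fit, errors beside differences are its standard errors, and folds against a mean under the floor use the floor. The test was also run on simulated data with independent noise for each gene and array. Such data lack the differences between arrays that many genes share here, so this check does not bear on the calls. With 3 arrays a group an exact permutation test of 1 gene cannot go below 0.1. Nothing beyond the label says that replicates came from separate mice, so p-values measure the spread between these samples. For arrays, their number limits the precision.

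Same-numbered Myc and wild type arrays had residuals correlated at -0.43, -0.28 and -0.63, and arrays of unlike number at -0.55 to 0.63. Myc 3 and the array labelled wild type 3 lie between the groups and shape these values. They therefore cannot decide whether the numbers pair the samples. The labels name no pairing, and none was used in the main fit.

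The comparison and the 56 gene lists, with 1530 distinct members of which 1319 were tested, were chosen with earlier results of these data known. Genes were named by a rule, the 15 called genes that rose most and the 15 that fell most without overlap of the groups, the Myc and Max network, and up to 4 called members of each list in each direction by p or otherwise up to 3 by p. The text gives a part of them, and names others where it says so; Vpreb1 was also chosen after its values were seen. Promoter windows were searched for CACGTG, and those shown belong to the 5 growth and metabolism genes with the smallest p among those higher in Myc that hold it. Windows on chromosome 18 were left out of this choice. Alternatives changed the filter, pseudocount, probe set, scaling, model and arrays.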

Additional observations from a re-analysis of the deposited data

How the results depend on the processing

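The 48 and 1087 calls of genes higher and lower in Myc rest on thin margins. No gene was called either way without the filter on low values, with the probe set of largest SD, quantile normalization, a common median, no intensity trend, an unmoderated linear model or an adjusted p under 0.01 (0 and 0), and the smallest adjusted p of these refits was 0.0514, with 3749 to 4477 genes at an unadjusted p under 0.05. All probe sets tested separately gave 0 higher and 2 lower, a floor of log2 6 gave 73 higher, the 6 Myc and wild type arrays alone 2050 lower, and array weights 1997 and 4180. Leaving out 1 array gave 0 to 1179 calls higher and 0 to 3149 lower. There were none without any 1 of wild type 1 or 2, TTP 1, Myc 1 or 2, or Myc TTP 1, 2 or 3, whereas there were 1179 and 2386 without the array labelled wild type 3, 460 and 3149 without TTP 3, 70 and 1643 without TTP 2, and 322 and 1829 without Myc 3. With both TTP 3 and the array labelled wild type 3 left out the counts were 1439 and 3526, and without the 4 arrays numbered 3 they were 1891 and 3735. Myc differed by 3.79 with array weights, 3.87 without both doubted arrays and 4.15 without all 4 numbered 3, and passed in each. The doubted arrays had been picked by their Myc level. With 1 array left out it differed by 2.38 to 3.87, and passed only without the array labelled wild type 3 or without TTP 3. The causes were not tested.

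With the number as a replicate block the calls were 0 and 0, and Myc differed by 2.88 with an adjusted p of 0.0637. The numbers are not taken as pairs.

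Of 124 genes named with values from the fit besides Myc, 88 were called, and these kept their direction under every setting that tested them except H2-D1, which stood at 0.59 with the probe set of largest SD. Mnt turned to 0.16 with quantile normalization and 0.22 with a common median, and Mxd3 to 0.15 and 0.17. With 1 array left out, Max lay between -0.059 and 0.24, Mnt between -0.10 and 0.036, and Mxi1 between -0.082 and 0.12. With quantile normalization the median of all genes was 0.08, and those of the Myc network, mitosis, p53 and BCL2 lists turned positive, at 0.16, 0.16, 0.31 and 0.13. The count of 1041 called genes with the same sign in Myc TTP over TTP moved between 978 and 1092. Probe sets near the floor give differences that are too small, and 3 arrays a group limit what can be called.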
